A study of Mus musculus with 2 samples.

Results

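Endothelial cells line the blood and lymphatic vessels, and 109 of the 24312 cells retained from mouse skin in both libraries were taken as endothelial. The cells were chosen by their own transcripts. A barcode was retained with at least 500 genes, at least 1000 unique molecular identifiers (UMIs, each 1 counted transcript) and at most 10% mitochondrial UMIs. It was called endothelial if at least 3 of 12 genes were detected, among them at least 1 of Pecam1, Cdh5, Egfl7 and Cldn5, and if the complement genes C1qa, C1qb and C1qc, which mark macrophages, gave at most 2 UMIs together. The other 8 genes were Emcn, Plvap, Flt1, Kdr, Prox1, Ccl21a, Mmrn1 and Lyve1. A cell with at least 2 of the last 4 was called lymphatic, and the rest were called blood endothelial. The sitagliptin-labelled library held 5 lymphatic and 18 blood endothelial cells, and the PBS-labelled library held 45 and 41.

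Both libraries came from skin of C57Bl6 mice aged 8 weeks, male and female by the labels, profiled with droplet-based single-cell sequencing of polyadenylated RNA. One group received 100 ng of sitagliptin in 100 µl of phosphate-buffered saline (PBS) by intradermal injection, and the other received PBS alone. Sitagliptin inhibits DPP4, a cell-surface protease that trims the N-terminus of peptide hormones and of chemokines such as CXCL12. The labels name 48 h beside skin processing without saying which event it is counted from, and do not say how many animals each library pools. There was 1 library for each treatment, so differences between the libraries have no replicate check and no test was made, and every interval is a 95% interval for counting error alone. The deposited name of each library carries a letter matching the initial of the opposite treatment; were the labels exchanged, every direction between the libraries would turn.

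Blood capillary endothelium exchanges water, gases and lipids with the tissue and typically carries fatty acid transport proteins and caveolae, whereas postcapillary venules present the adhesion molecules that capture leukocytes. Lymphatic endothelium drains fluid and guides dendritic cells with the chemokine CCL21. Its identity depends on the transcription factor PROX1, and its growth on VEGF-C acting through VEGFR3, the product of Flt4.

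Endothelial cells were a far smaller share of the sitagliptin-labelled library. They made up 0.125% of its 18380 retained cells (exact Clopper-Pearson interval 0.0793 to 0.188), against 1.45% of 5932 retained cells (1.16 to 1.79) in the PBS-labelled library, a share lower by 11.6-fold (7.24 to 19.2). The share of lymphatic cells was lower by 27.9-fold (11.1 to 90), with 5 against 45 cells, and that of blood endothelial cells by 7.06-fold (3.96 to 13.1), with 18 against 41 cells. Lymphatic cells were therefore 21.7% of the endothelial cells (7.46 to 43.7) in the sitagliptin-labelled library and 52.3% (41.3 to 63.2) in the PBS-labelled library. The whole makeup of the libraries differed in the same sense. Cells with at least 20 keratin UMIs, called keratinocytes here, were 98.9% of the retained cells of the sitagliptin-labelled library and 68.4% of those of the PBS-labelled library. Fibroblasts, with at least 10 UMIs of Col1a1, Col1a2, Col3a1 and Dcn, numbered 3 and 364, and macrophages, with at least 3 C1q UMIs, numbered 11 and 630. Keratinocytes, fibroblasts and macrophages each left out endothelial cells and cells that met the bar of another of these classes. Without leaving out the latter, 28 and 495 non-endothelial cells held at least 10 UMIs of the fibroblast genes. Depth differed as well, with a median of 2197 and 6902 UMIs per retained cell. When every retained cell was thinned to 1000 UMIs before the rule was applied, 13 cells were called endothelial in the sitagliptin-labelled library and 70 in the PBS-labelled library. The part of the differences in makeup and depth in the smaller endothelial share was not tested. The libraries had 75 barcodes in common, which belonged to 0 endothelial cells of the sitagliptin-labelled library and 1 of the PBS-labelled library.

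The edge of the rule was broad relative to the sitagliptin-labelled class. In the sitagliptin-labelled library 15 retained cells had 2 of the 12 genes and stayed out, with a median of 109 keratin UMIs and 1 detected gene from a list of 26 further endothelial genes, while the 3 cells with exactly 3 genes came in, with medians of 61 keratin UMIs and 5 further genes. In the PBS-labelled library 16 cells with 2 genes stayed out, with medians of 288 keratin UMIs and 1 further gene, and 8 cells with 3 genes came in, with medians of 16.5 keratin UMIs and 3.5 further genes. Cells with 5 or more of the genes had a median of 8 further endothelial genes in the sitagliptin-labelled library (13 cells) and 12 in the PBS-labelled library (65 cells). A further 7 cells of the PBS-labelled library met the rest of the rule but had over 2 C1q UMIs.

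The 6 markers given with the label are all among the 12 rule genes, so their levels describe the cells and do not check the label. The levels below are UMIs per 1000000 UMIs of the summed cells (CPM), set per library and class. Pecam1, an adhesion protein of endothelial junctions, stood at 468 CPM in lymphatic and 491 CPM in blood endothelial cells of the sitagliptin-labelled library, and at 440.3 and 713 CPM in those of the PBS-labelled library. Cdh5, the adherens junction cadherin of endothelium, stood at 273 and 210.2 CPM in the sitagliptin-labelled and at 153 and 478 CPM in the PBS-labelled library. Cldn5, a tight junction protein, leaned to lymphatic cells with 1365 against 81.8 CPM in the sitagliptin-labelled and 1999 against 303 CPM in the PBS-labelled library. Plvap, which forms the diaphragms of fenestrae and caveolae, was at 468 against 420.5 CPM in the sitagliptin-labelled library and at 261 against 915 CPM in the PBS-labelled library. Among the 4 genes that split the classes, Ccl21a gave 127 UMIs in 4 of 5 lymphatic cells and 0 UMIs in 18 blood endothelial cells of the sitagliptin-labelled library. In the PBS-labelled library it gave 3760 UMIs in 41 of 45 lymphatic cells, 16892 CPM, and 9 UMIs in 1 of 41 blood endothelial cells. The sequence end of Ccl21a is 83.6% shared with gene copies such as Ccl21b, so its reads may be split among them. Mmrn1, a secreted multimerin, had 546 against 11.7 CPM in the sitagliptin-labelled and 1752 against 60.6 CPM in the PBS-labelled library. These 12 genes chose the cells, so their levels are a description.

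**Figure D1:**
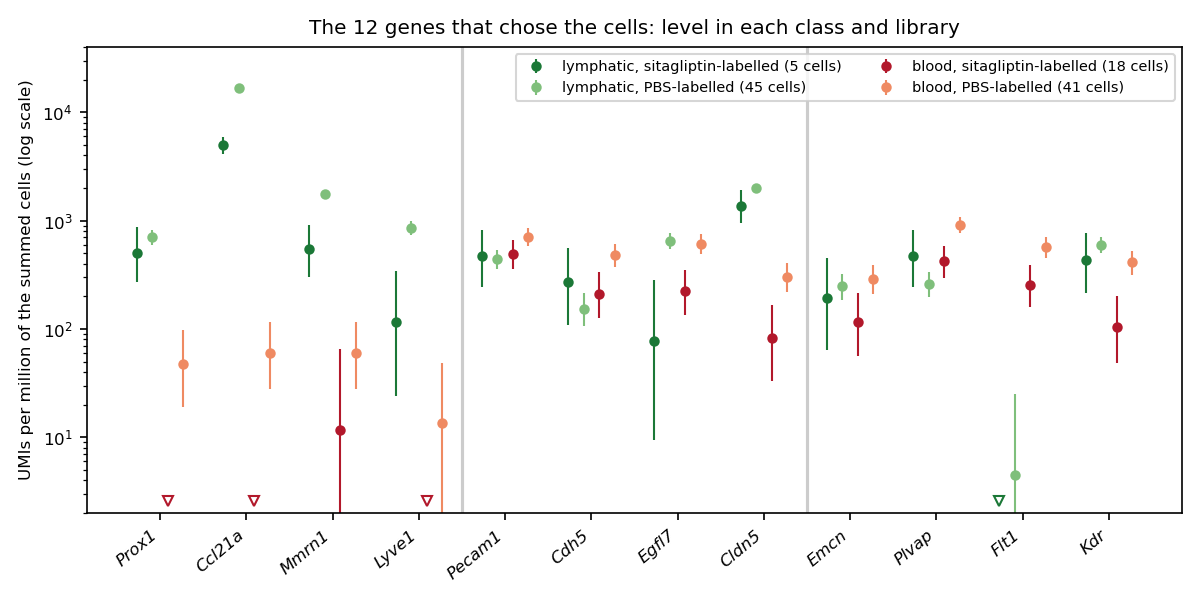
Levels of the 12 genes used by the rule, in CPM of the summed cells on a log axis, with 95% Poisson intervals, for lymphatic and blood endothelial cells of the sitagliptin-labelled (dark) and PBS-labelled (light) libraries; open triangles mark genes with 0 UMIs. Prox1, Ccl21a, Mmrn1 and Lyve1 lie high in lymphatic cells, and Flt1 lies high in blood endothelial cells, with 0 UMIs and 1 UMI in the lymphatic cells of the sitagliptin-labelled and PBS-labelled libraries.

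Genes outside the rule set the same cells apart from the rest of the skin. With the bound of the ratio nearest 1 as the measure, and rule genes left out, the leading gene of the sitagliptin-labelled library was Gpihbp1, which carries lipoprotein lipase to the capillary lumen, at 144 CPM against 0.0589 CPM in all other retained cells. It was followed by Lrg1, a secreted glycoprotein that modulates TGF-β signalling, at 710.1 against 0.671 CPM, the water channel Aqp1 at 620.2 against 0.801 CPM, and the fatty acid-binding protein Fabp4 at 2283 against 4.06 CPM. In the PBS-labelled library Flt4 led at 442 against 0.211 CPM, followed by Reln at 477 against 0.247 CPM and the vascular phosphatase Ptprb at 318 against 0.247 CPM. Gpihbp1, Fabp4, Ptprb, Podxl and Ecscr were among the 15 leading genes of both libraries. The cells were picked for endothelial transcripts, so these contrasts are no test. After thinning to 1000 UMIs, at least 2 of the 26 further endothelial genes were detected in 13 of 18 blood and 4 of 5 lymphatic cells of the sitagliptin-labelled library, and in 37 of 41 and 38 of 45 cells of the PBS-labelled library. The same was seen in 0.396% of keratinocytes in the sitagliptin-labelled and 0.271% in the PBS-labelled library. Free RNA was not measured, so what sets the share in keratinocytes was not tested.

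Promoter windows are shown for a pair of lymphatic and a pair of blood endothelial genes that the next results name. Of these Flt1 is a rule gene. The windows are the 250 bases before the RefSeq transcription start on GRCm38.p6, read along the gene's strand. Capitals mark AGGAAG, a word bound by ETS factors, the family to which the endothelial regulators ERG and FLI1 belong. The windows lie at chr5:22344706-22344955 (− strand) for Reln, chr11:49609429-49609678 (+ strand) for Flt4, chr6:55336049-55336298 (+ strand) for Aqp1 and chr5:147726012-147726261 (− strand) for Flt1.
Reln: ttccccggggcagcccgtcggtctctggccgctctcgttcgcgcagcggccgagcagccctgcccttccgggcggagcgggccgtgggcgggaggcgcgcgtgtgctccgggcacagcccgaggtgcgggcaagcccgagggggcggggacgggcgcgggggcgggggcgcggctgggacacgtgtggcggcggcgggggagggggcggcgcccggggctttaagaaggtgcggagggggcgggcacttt
Flt4: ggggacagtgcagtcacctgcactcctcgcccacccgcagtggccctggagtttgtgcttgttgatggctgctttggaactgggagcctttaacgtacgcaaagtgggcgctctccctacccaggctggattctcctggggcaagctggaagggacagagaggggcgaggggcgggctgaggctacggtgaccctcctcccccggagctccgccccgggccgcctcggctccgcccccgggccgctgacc
Aqp1: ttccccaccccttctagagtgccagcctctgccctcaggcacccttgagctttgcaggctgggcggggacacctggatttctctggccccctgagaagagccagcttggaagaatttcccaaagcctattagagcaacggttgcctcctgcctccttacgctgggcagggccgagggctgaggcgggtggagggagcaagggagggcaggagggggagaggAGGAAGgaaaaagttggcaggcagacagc
Flt1: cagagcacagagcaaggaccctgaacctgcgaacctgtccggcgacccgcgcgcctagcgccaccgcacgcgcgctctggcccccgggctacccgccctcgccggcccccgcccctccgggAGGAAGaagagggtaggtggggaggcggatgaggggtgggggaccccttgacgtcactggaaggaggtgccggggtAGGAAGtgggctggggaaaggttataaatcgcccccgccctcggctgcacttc
On either strand AGGAAG occurred in the window of Aqp1 and at 2 places in that of Flt1, and not in those of Reln and Flt4. It also occurred once in the window of the lymphatic gene Ccl21a, which is not printed, so the lymphatic genes examined were not all without it. It occurred in 29.2% of the 27025 genes with a window. Of the listed genes with a window it was found in 6 of 10 capillary genes, 8 of 14 further endothelial genes, 7 of 24 lymphatic genes outside the rule and 1 of 9 keratinocyte genes. A match is a run of letters, not a bound site. Only AGGAAG was searched. Its part GGAAG also stands in the Flt4 window and, on the other strand, in that of Reln. A window without AGGAAG may thus still hold other ETS words.

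The comparison of lymphatic with blood endothelial cells asked what distinguished the vessel types, and it was made in the PBS-labelled library, where both classes were numerous. Reln, Fgl2 and Flt4 were among the genes far higher in lymphatic cells, and Fabp4, Cd36 and Aqp1 among those far lower. The classes held 222584 and 148604 UMIs. Of 3233 genes with at least 20 UMIs over both classes and 50 CPM in either, 490 (15.2%) were higher by 2-fold or more and 287 (8.88%) lower by as much in lymphatic cells. Depth per cell differed, with medians of 4282 and 2521 UMIs.

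Reln, which encodes reelin and lies on chromosome 5 at 21884454 to 22344702 (GRCm38), gave 176 UMIs in 37 of 45 lymphatic cells against 1 UMI in 41 blood endothelial cells, a 118-fold higher level (20.8 to 4667). Fgl2, encoding fibrinogen-like protein 2 (chromosome 5, 21372642 to 21378374), gave 412 UMIs in 40 lymphatic cells against 14 UMIs in 10 blood endothelial cells and was 19.6-fold higher (11.6 to 36.3). Flt4 (chromosome 11, 49609263 to 49652739) gave 158 UMIs against 6 UMIs and was 17.6-fold higher (7.9 to 48.6). All 3 genes were thus detected in most of the lymphatic cells, while Fgl2 also reached 10 of 41 blood endothelial cells. Lcn2, encoding the iron-siderophore-binding lipocalin 2, gave 160 against 5 UMIs and was 21.4-fold higher (8.97 to 66.7). The serine protease inhibitor gene Serpina3n gave 91 against 1 UMI and was 60.8-fold higher (10.6 to 2426). Maf, a transcription factor, gave 192 against 9 UMIs and was 14.2-fold higher (7.35 to 31.6). The remaining 6 of the 12 genes named on this side had from 34 to 55 UMIs in lymphatic cells. Gpm6a, a membrane glycoprotein, had 1 UMI in blood endothelial cells. Hmcn1, the laminin gene Lamb1, the neurexin gene Nrxn2, the chemokine scavenger Ackr2 and the transporter Slc45a3 had 0 UMIs there, and were at least 9.35-fold, 9.35-fold, 9.12-fold, 8.01-fold and 7.57-fold higher against a floor of 3 UMIs for the class.

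On the blood side Fabp4 (chromosome 3, 10204088 to 10208576), a carrier of fatty acids, gave 14 UMIs in 6 of 45 lymphatic cells against 1175 UMIs in 36 of 41 blood endothelial cells and was 126-fold lower in lymphatic cells (74.6 to 231). Cd36, a fatty acid translocase, gave 6 against 146 UMIs and was 36.4-fold lower (16.3 to 101). Scarb1, the HDL receptor SR-BI, gave 0 UMIs in lymphatic cells against 119 UMIs in 29 blood endothelial cells, at least 59.4-fold lower. These 3 genes, all known from lipid handling, were thus detected mainly in the blood class. Aqp1 gave 13 against 214 UMIs and was 24.7-fold lower (14.1 to 47.1). Igfbp7, a secreted matrix protein of vessels, gave 21 against 308 UMIs and was 22-fold lower (14.1 to 36). Vwf, which encodes the platelet-binding von Willebrand factor, gave 1 against 48 UMIs and was 71.9-fold lower (12.3 to 2898). The matricellular gene Sparcl1 (69 UMIs), the VEGF co-receptor Nrp1 (49 UMIs), the venular chemokine receptor Ackr1 (39 UMIs) and the lipogenic gene Thrsp (26 UMIs) gave UMIs in blood endothelial cells and 0 in lymphatic cells. Ly6c1 gave 3 against 172 UMIs, but 43.9% of its sequence end is shared with relatives such as Ly6c2 and Ly6a. The proliferation marker Mki67 gave 1 against 47 UMIs, of which 48.9% came from 1 blood endothelial cell. It gave 1 against 0 UMIs without the cells that carried at least 10 UMIs of 6 keratin genes or of 4 collagen and decorin genes.

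**Figure D2:**
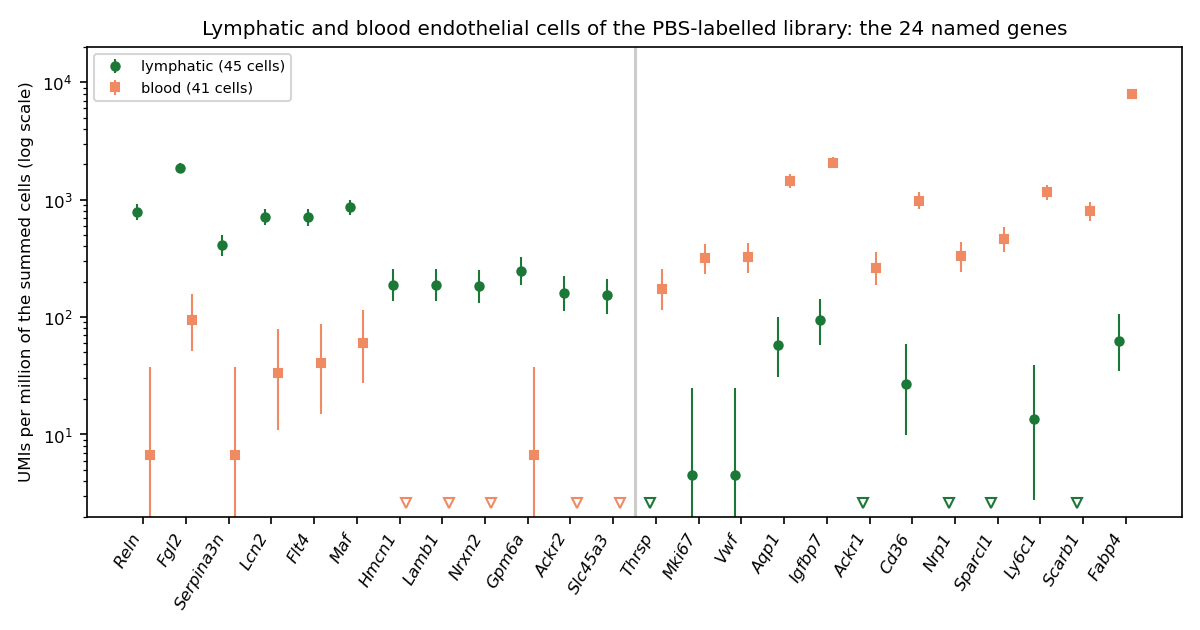
Levels of the 24 genes named by the size of their difference, in CPM of the summed cells on a log axis with 95% Poisson intervals, in lymphatic (circles, 45 cells) and blood (squares, 41 cells) endothelial cells of the PBS-labelled library; open triangles mark 0 UMIs. Fabp4 stands at 62.9 CPM in lymphatic and 7907 CPM in blood endothelial cells, and Reln at 791 and 6.73 CPM.

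The gene lists describe the same contrast by function. They were chosen with earlier results of these data known. The lymphatic and capillary lists also hold genes named above by their difference, such as Reln, Fgl2, Flt4, Fabp4, Cd36 and Aqp1. Their counts are thus no separate test. Their members were counted where both classes together had at least 10 UMIs, and rule genes were left out; over all genes at that depth 18.6% were higher by 2-fold or more and 11.9% lower by as much in lymphatic cells, with a median log2 ratio of 0.12. Of 27 counted lymphatic genes outside the rule, 25 were at least 2-fold higher and 0 lower, with a median log2 ratio of 3.01. They included Timp3, an inhibitor of matrix metalloproteinases, at 2502 against 767 CPM, the scavenger receptor gene Stab1 at 593 against 80.8 CPM, and Fxyd6, a regulator of the sodium pump, at 818 against 101 CPM. Foxc2, a transcription factor of lymphatic valves, gave 27 UMIs in 13 cells against 2 UMIs. Claudin gene Cldn11 and neurotensin gene Nts gave 19 and 18 UMIs in lymphatic cells and 0 in blood endothelial cells, and the mechanosensitive channel gene Piezo2 gave 18 against 1 UMI. Nrp2, which binds VEGF-C with VEGFR3, was within 2-fold at 256 against 195 CPM.

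Of 14 counted capillary genes, 11 were at least 2-fold lower in lymphatic cells and 1 was higher, with a median log2 ratio of -3.92. The 1 was Btnl9, a butyrophilin gene, at 89.9 against 40.4 CPM. Gpihbp1 stood at 112 against 532 CPM, and Aplnr, the apelin receptor, and Tcf15, a partner of Meox2 in fatty acid uptake, gave 0 UMIs in lymphatic cells. Cdh13, an adiponectin-binding cadherin, was within 2-fold at 328 against 262 CPM. Fatty acid and caveolar genes divided, with 2 of 16 higher and 8 lower. Cavin2, a caveolar coat protein, was higher in lymphatic cells at 1119 against 505 CPM, while Plpp3, a lipid phosphatase, was lower at 166 against 545 CPM.

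Of 12 counted genes known from arteries, 7 were at least 2-fold higher in lymphatic cells and 1 was lower. These were led by Stmn2, a stathmin, at 234 against 20.2 CPM and Unc5b, a netrin receptor, at 121 against 13.5 CPM, and they included the ligand gene Efnb2 at 274 against 87.5 CPM; the list shares Gja4 with the lymphatic list. Venous and postcapillary genes were mixed, with 2 of 11 higher and 4 lower. Nr2f2, which encodes the venous and lymphatic regulator COUP-TFII, was higher at 656 against 202 CPM, Selp, the P-selectin gene, gave 2 against 18 UMIs, and Lrg1 was level at 1519 against 1454 CPM. Basement membrane genes leaned to blood endothelium, with 3 of 17 higher and 9 lower. Col4a2, a type IV collagen chain, stood at 117 against 471 CPM and Col15a1 at 27 against 370.1 CPM. The laminin genes Lama4, at 328 against 74 CPM, and Lamb1, at 189 CPM against 0, went the other way. Laminin genes were split when cells rich in keratin or in collagen and Dcn UMIs were left out. In the 29 lymphatic and 24 blood endothelial cells kept, Lamb2 was lower, with a ratio of 0.257 (0.0753 to 0.809). Lama5 gave 2 against 4 UMIs there, and Lamc1 gave 23 against 2.

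Receptors of angiogenic ligands were mostly within 2-fold, with 1 of 13 counted higher, Flt4, and 3 lower, namely Nrp1, Aplnr and the angiopoietin receptor gene Tek. The 2 VEGF receptors of the rule differed. Flt1 gave 1 UMI in lymphatic cells against 84 UMIs in 27 blood endothelial cells, while Kdr, the main VEGF-A receptor, stood at 598 against 410.5 CPM. Both genes helped to choose the cells, so these levels are a description. Of 12 counted junction genes 3 were higher and 3 lower, and Jam2, an adhesion molecule of junctions, gave 0 against 23 UMIs. Among 20 counted transcription factor genes 5 were higher and 3 lower, with Nfatc1 at 211 against 67.3 CPM, and Mecom at 0 against 17 UMIs and Epas1, the hypoxia-inducible factor HIF-2α, at 139 against 444 CPM on the other side. Cxcl12, a DPP4 substrate, stood at 71.9 CPM in lymphatic and 572 CPM in blood endothelial cells, lower by 7.96-fold (4.63 to 14.5). Dpp4 itself gave 7 UMIs in 4 lymphatic cells and 1 UMI in 1 blood endothelial cell.

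Transcripts of other cell types differed little in most of these cells and strongly in a few. The keratinocyte list summed to 13384 CPM in lymphatic and 25672 CPM in blood endothelial cells of the PBS-labelled library, against 56179 CPM in its keratinocytes, and all 15 of its genes were detected. The fibroblast list summed to 1671 and 1151 CPM and the macrophage list to 642 and 229 CPM. A single lymphatic cell held 308 collagen and Dcn UMIs and a single blood endothelial cell 139, and another lymphatic cell held 78 UMIs of the macrophage list. In the 29 lymphatic and 24 blood endothelial cells without at least 10 keratin or 10 collagen and Dcn UMIs, Fgl2 gave 303 against 7 UMIs, Reln 140 against 0, Flt4 114 against 3, and Fabp4 stayed at 672 UMIs in the blood endothelial cells. Class II genes of the major histocompatibility complex came from few lymphatic cells, with 36 UMIs of H2-Ab1 in 3 cells and 67 UMIs of Cd74 in 5.

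The 5 lymphatic and 18 blood endothelial cells of the sitagliptin-labelled library gave the same sides for most of these genes. Of the 12 genes named as higher, 8 had over 3 UMIs there and all 8 were higher in lymphatic cells. Of the 12 named as lower, 11 had over 3 UMIs and 10 were lower. Among all 4868 genes with over 3 UMIs in that library 50% were higher and 50% lower. Reln and Flt4 gave 8 UMIs each in the lymphatic cells against 0 in the blood endothelial cells, at least 8.91-fold higher. Fgl2 gave 21 against 3 UMIs, 23.4-fold higher (6.98 to 122), and Lcn2 gave 17 against 1 UMI. On the other side Fabp4 gave 0 against 254 UMIs, at least 25.4-fold lower, Aqp1 0 against 69 UMIs, Igfbp7 0 against 48 UMIs and Cd36 0 against 34 UMIs. The exception was Mki67, with 18 UMIs in the lymphatic class, all from 1 cell, against 8 UMIs in 5 blood endothelial cells. That cell was also the deepest of the class, with 11956 UMIs, 447 of them from 6 keratin genes.

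Cell by cell, the lymphatic genes outside the rule and the capillary genes separated all lymphatic cells from most, but not all, blood endothelial cells. Both lists were chosen with earlier results of these data known, so this separation is a description. Lymphatic cells had a median of 111 UMIs of the first list per 10000 in the sitagliptin-labelled library (23.4 to 196) and 128 in the PBS-labelled library (10 to 285), and blood endothelial cells 21.3 (0 to 63.3) and 19.9 (0 to 134). For the capillary genes the medians were 5 and 8.23 in lymphatic and 81.8 and 119 in blood endothelial cells. All 5 and all 45 lymphatic cells had more UMIs from the lymphatic than from the capillary list. So did 4 of 18 blood endothelial cells in the sitagliptin-labelled library and 8 of 41 in the PBS-labelled library. Of the 8, 6 had exactly 1 of the lymphatic rule genes, 1 short of the lymphatic call, and 1 other was the cell with 139 collagen and Dcn UMIs. The clearest were cells with 33 lymphatic and 5 capillary UMIs of 2521, with 24 and 3 of 2162, and with 25 and 3 of 4306. Of the 4 in the sitagliptin-labelled library, 3 held 61, 441 and 1225 keratin UMIs, and the other held 24 UMIs of the pericyte and smooth muscle list. After thinning, at least 2 capillary genes were detected in 0 of 5 lymphatic and 13 of 18 blood endothelial cells of the sitagliptin-labelled library. In the PBS-labelled library they were detected in 7 of 45 and 33 of 41 cells. The share of keratinocytes was 1.07% and 0.592%. For the lymphatic list it was 29.9% in the sitagliptin-labelled and 26.2% in the PBS-labelled library. Summed keratinocytes also had more of the lymphatic than of the capillary list. They stood at 1348 against 217 CPM in the sitagliptin-labelled and 1231 against 213 CPM in the PBS-labelled library. More lymphatic than capillary UMIs thus do not set lymphatic cells apart from keratinocytes.

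**Figure D3:**
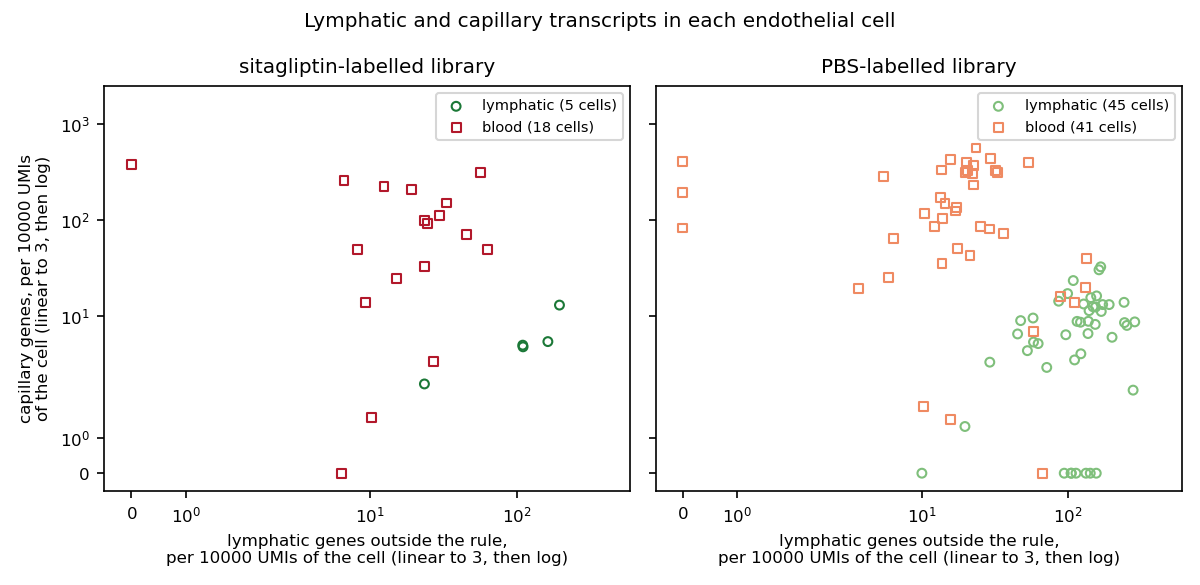
Each point is 1 endothelial cell; the x axis gives UMIs of lymphatic genes outside the rule and the y axis UMIs of capillary genes, both per 10000 UMIs of the cell, on axes that are linear to 3 and logarithmic above, with the sitagliptin-labelled library on the left. All lymphatic cells (circles) lie at or below 32.7 on the capillary axis, and of the 8 blood endothelial cells (squares) of the PBS-labelled library with more lymphatic than capillary UMIs 7 lie below that value and 1 lies at 39.7.

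The comparison of treatments in blood endothelial cells rested on 18 cells and 85622 UMIs in the sitagliptin-labelled library and 41 cells and 148604 UMIs in the PBS-labelled library. The 3 deepest sitagliptin-labelled cells held 25586, 11803 and 11210 of these UMIs. They had 1225, 441 and 616 keratin UMIs, and 5, 2 and 8 UMIs of the further endothelial genes. The 3 deepest PBS-labelled cells held 13333, 10917 and 10809 UMIs. They had 556, 373 and 15 keratin UMIs, and 5, 31 and 18 UMIs of those genes. Epidermal genes were higher and genes of capillary endothelium lower in the sitagliptin-labelled cells. Of 1935 genes with at least 20 UMIs and 50 CPM in either, 160 (8.27%) were higher by 2-fold or more and 291 (15%) lower by as much. Scaled instead to the summed UMIs of the 26 further endothelial genes, a choice made after seeing the data, 1060 were higher and 67 lower, so the balance of directions depends on what the levels are set against. The minimum of 50 CPM was applied to the rescaled levels, so these counts need not be out of the same 1935 genes.

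Keratinocyte, fibroblast and macrophage transcripts also differed between these cells of the libraries. The keratinocyte list summed to 55558 CPM in sitagliptin-labelled and 25672 CPM in PBS-labelled blood endothelial cells. The sums came from a few cells: 10 of 18 and 16 of 41 cells held at least 10 keratin UMIs, the medians were 14 and 8 keratin UMIs, and the highest cells held 1225 and 556. The fibroblast list summed to 23.4 and 1151 CPM with 9 and 0 of its 10 genes at 0, and the macrophage list to 0 and 229 CPM with 14 and 4 of 14 genes at 0. The part of such transcripts in the differences below was not tested. Values are also given for the 8 sitagliptin-labelled and 24 PBS-labelled cells that held fewer than 10 keratin and fewer than 10 collagen and Dcn UMIs. There the keratinocyte list summed to 6211 and 4338 CPM. These cells held 14652 and 50484 UMIs, and the filter also left out the deepest cell of each library. Keratin content and depth were thus not separated by it. Below, "without other markers" and "without cells with markers of another type" mean this filter alone. It did not screen other cell types, and a sitagliptin-labelled cell with 24 UMIs of the pericyte and smooth muscle list stayed in.

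**Figure D4:**
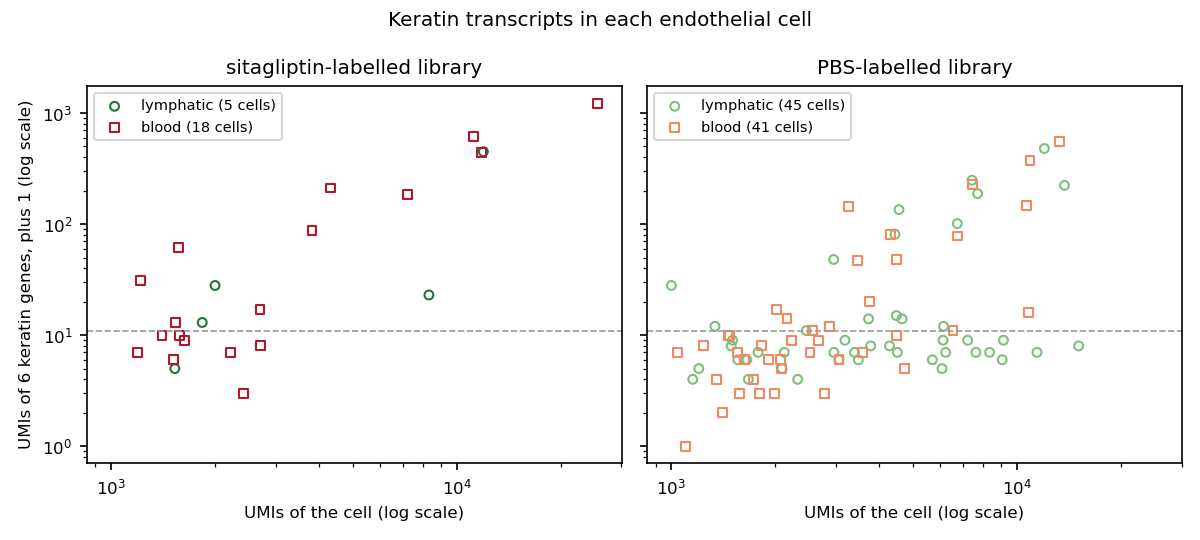
Keratin UMIs (Krt5, Krt14, Krt1, Krt10, Krt15 and Krt17, plus 1) of each endothelial cell against its total UMIs, both on log axes, with the sitagliptin-labelled library on the left and a dashed line at 10 keratin UMIs. The deepest blood endothelial cell of the sitagliptin-labelled library, with 25586 UMIs, holds 1225 keratin UMIs, and the deepest of the PBS-labelled library, with 13333 UMIs, holds 556.

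Among the 12 genes named as higher were Krt1 and Krt10, keratins of differentiating epidermis. Krt1 gave 771 UMIs in 15 of 18 sitagliptin-labelled cells against 198 UMIs in 28 of 41 PBS-labelled cells, 6.76-fold higher (5.77 to 7.94), and 44.2% and 59.1% of these UMIs came from 1 cell in each library. Krt10 gave 940 against 631 UMIs, 2.59-fold higher (2.33 to 2.86). In the cells without other markers few UMIs were left, with 10 against 20 UMIs for Krt1, a ratio of 1.72 (0.72 to 3.86), and 19 against 40 UMIs for Krt10, a ratio of 1.64 (0.895 to 2.89). The other named genes were Stfa3, Lgals3, Serpinb5, Sult2b1, Fam162a, Ggct, Slc38a2, S100a11, Pycard and Capns2, which were between 2.49-fold and 10.7-fold higher. In the sitagliptin-labelled library 1 cell gave 50% of the UMIs of Capns2, 48.8% of Stfa3 and 45.9% of Pycard. The share was 44.6% for Lgals3, 42.3% for Ggct and 41.9% for Fam162a. It was lower for the others, down to 16.4% for Slc38a2. In the cells without other markers Stfa3, Serpinb5 and Ggct gave 1 UMI each in sitagliptin-labelled against 0 in PBS-labelled cells, Sult2b1 and Capns2 0 against 1, Fam162a 0 against 3 and Pycard 1 against 3, too few for a fold. Lgals3, a galectin, gave 10 against 21 UMIs there, a ratio of 1.64 (0.69 to 3.64). Slc38a2, an amino acid transporter, had 61 UMIs in 15 of 18 cells against 36 UMIs in 21 of 41, 2.94-fold higher (1.92 to 4.57), and 11 against 10 UMIs in the cells without other markers, a ratio of 3.79 (1.46 to 9.95). S100a11, whose end is 50% shared with other genes, turned to a ratio of 0.689 in those cells.

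Among the 12 genes named as lower, Fabp4 gave 254 UMIs in 14 of 18 sitagliptin-labelled cells against 1175 UMIs in 36 of 41 PBS-labelled cells, 2967 against 7907 CPM and 2.67-fold lower (2.33 to 3.06). In the cells without other markers it stood at 11876 against 13311 CPM, a ratio of 0.892 (0.751 to 1.06). Igfbp7 gave 48 against 308 UMIs, 3.7-fold lower (2.72 to 5.12), and its ratio in the cells without other markers was 0.5 (0.324 to 0.746), with 1911 against 3823 CPM. Its lower level was thus still seen there, unlike most of that of Fabp4. Gng11, a G-protein gamma subunit, gave 9 against 83 UMIs, 5.31-fold lower (2.67 to 12), with a ratio of 0.352 (0.109 to 0.878) in the same cells. Ifitm2, an interferon-inducible gene whose end is 51.5% shared with others, gave 32 against 193 UMIs, 3.48-fold lower (2.38 to 5.22), with a ratio of 0.479 (0.265 to 0.812). Bst2, the interferon-inducible tetherin, gave 1 against 27 UMIs, and Cd300lg, a capillary receptor also called nepmucin, 2 against 36. The lipoprotein lipase gene Lpl gave 1 against 26 UMIs, the collagen chaperone gene Serpinh1 5 against 51, the transcription factor gene Cebpd 2 against 32, the protease inhibitor gene Timp4 4 against 44 and Tmsb10, whose end is 46.2% shared with other genes, 14 against 97. Pea15a gave 0 against 21 UMIs, at least 4.03-fold lower. Without the cells with other markers, each of these 8 genes, from Bst2 to Pea15a, gave at most 10 UMIs in the sitagliptin-labelled cells. All 8 were still lower there, 7 with ratios from 0.172 for Cd300lg to 0.604 for Tmsb10 and Pea15a with 0 against 13 UMIs, but with these few UMIs all 8 intervals reached above 1.

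The endothelial and capillary lists were lower as sums in all cells and nearer to level without the cells with other markers. Over all genes with at least 10 UMIs, 11.6% were higher by 2-fold or more and 17.8% lower by as much, with a median log2 ratio of -0.04. Of 23 counted endothelial genes outside the rule, 0 were at least 2-fold higher and 13 lower, and their sum was 2838 CPM in sitagliptin-labelled and 6144 CPM in PBS-labelled cells, a ratio of 0.462 that became 0.906 without the cells with other markers, and the median log2 ratio of -1.09 became 0.02 when scaled to these genes themselves. Of 13 counted capillary genes 0 were higher and 9 lower, and the sums of 5057 and 12665 CPM had a ratio of 0.399, against 0.867 without those cells. Aqp1 stood at 806 against 1440.1 CPM, and at 2935 against 3109.9 CPM without those cells, a ratio of 0.944 (0.657 to 1.33). Cd36 stood at 397 against 982 CPM, and at 1502 against 1743 CPM without them, a ratio of 0.861 (0.514 to 1.39). Fatty acid and caveolar genes had 1 of 16 higher and 10 lower, with ratios of the sums of 0.511 and 0.88; the 1 was Fabp5, an epidermal as well as endothelial fatty acid-binding protein, at 1985 against 760.4 CPM, and its ratio was 1.17 without the cells with other markers.

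Venous and postcapillary genes had 0 of 12 higher and 3 lower, receptors 0 of 10 higher and 5 lower, transcription factors 0 of 17 higher and 4 lower, and junction genes 0 of 10 higher and 1 lower. The ratio of the sums was 0.582 for the venous list and 1.18 for the junction list, and 1.03 and 1.41 without the cells with other markers. Vwf stood at 304 against 323 CPM and Ackr1 at 164 against 262 CPM, and both turned without those cells, Vwf to 956 against 673 CPM, a ratio of 1.42 (0.703 to 2.71), and Ackr1 to 819 against 574 CPM, a ratio of 1.43 (0.663 to 2.88). Cxcl12 stood at 245 against 572 CPM, 2.33-fold lower (1.43 to 3.96), and at 819 against 773 CPM without the cells with other markers, and Dpp4 gave 2 UMIs against 1. Median log2 ratios of the receptors and transcription factors were -1.01 and -0.84, but turned to 0.08 and 0.11 without the cells with other markers. Scaled to the endothelial genes they were 0.10 and 0.26. Both lists share members with those genes. That scaling also raises every ratio by the same factor, so this turn is no separate evidence. Basement membrane genes had 0 of 14 higher and 10 lower, with ratios of the sums of 0.387 and 0.738, and Col4a2 stayed lower at 5 against 50 UMIs in the cells without other markers, a ratio of 0.345 (0.107 to 0.859). The interferon list had 0 of 7 higher and 5 lower, with ratios of 0.369 and 0.588. It included Ly6a, an endothelial surface protein (Sca-1) whose end is 25.6% shared with relatives, at 444 against 1427 CPM, and at 1092 against 2436 CPM without the cells with other markers, a ratio of 0.448 (0.248 to 0.757). Genes of the immediate early and dissociation list had 1 of 21 higher and 4 lower, with ratios of 0.857 and 1.26. Of the lists drawn in the plot of list ratios, the basement membrane and interferon lists thus stayed farthest below level. These sums leaned on few genes. In the cells without other markers Igfbp7 gave 28 against 193 UMIs and Ly6a 16 against 123. Other large members were nearer to level there. Sparc of the basement membrane list had a ratio of 1.02 (0.687 to 1.48), and Ly6e of the interferon list 0.861 (0.532 to 1.35).

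**Figure D5:**
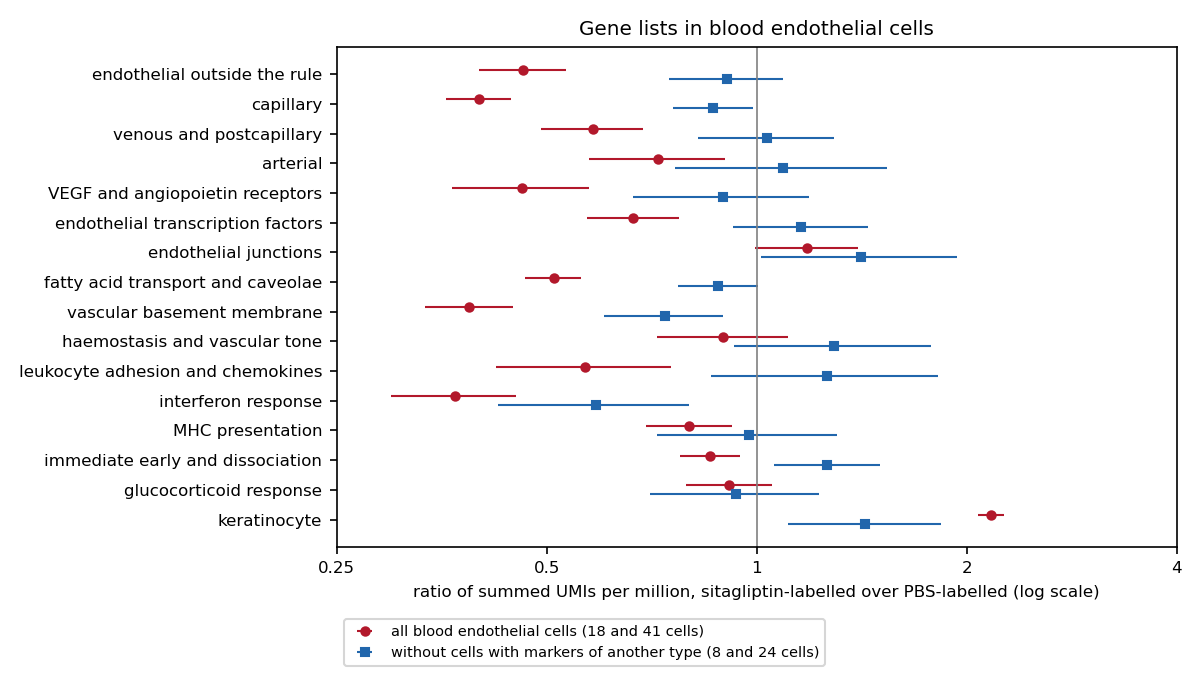
Ratio of the summed CPM of 16 gene lists, sitagliptin-labelled over PBS-labelled blood endothelial cells, on a log axis with 95% counting intervals, in all cells (circles, 18 and 41 cells) and without cells that held at least 10 keratin or 10 collagen and Dcn UMIs (squares, 8 and 24 cells). The ratio of the capillary list is 0.399 in all cells and 0.867 without those cells, that of the keratinocyte list 2.16 and 1.43, and that of the interferon list 0.369 and 0.588.

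Lymphatic cells were too few in the sitagliptin-labelled library for a list of genes, with 5 cells and 25637 UMIs against 45 cells and 222584 UMIs. The deepest of the 5 cells held 11956 of the 25637 UMIs, with 447 keratin UMIs and 0 UMIs of Ccl21a. Ccl21a stood at 4954 CPM in sitagliptin-labelled and 16892 CPM in PBS-labelled lymphatic cells, with a range of 0 to 60 UMIs per cell against 0 to 349. Prox1 stood at 507 against 705 CPM, Mmrn1 at 546 against 1752 CPM, Lyve1 at 117 against 858 CPM, Flt4 at 312 against 709.8 CPM and Reln at 312 against 791 CPM. Lrg1 was level at 1521 against 1519 CPM. The keratinocyte list summed to 32453 CPM against 13384 CPM in the same cells, 4 of 5 and 15 of 45 cells held at least 10 keratin UMIs, and its part in these levels was not tested. Without other markers 1 sitagliptin-labelled cell, with 1529 UMIs, and 29 PBS-labelled cells were left. There Ccl21a stood at 33355 against 19115 CPM, Prox1 at 1308 against 993 and Lyve1 at 1962 against 848. Flt4 stood at 1962 against 871 CPM and Reln at 1308 against 1069.6. Mmrn1, at 1308 against 2124 CPM, and Lrg1, at 654 against 2177, were lower. The directions thus depended on which cells were kept, and 1 cell cannot settle them.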

How the data were processed

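The submitters' processing notes name Cell Ranger 3.1.0 and mm10. The authors deposited UMI counts per gene and barcode, not normalized, for 31053 genes, per the file headers; the totals were 95047000 UMIs in 22085 barcodes of the sitagliptin-labelled and 70729930 UMIs in 10456 barcodes of the PBS-labelled library. The sources used here do not give how barcodes were called as cells. No doublet caller was run, so doublets may remain.

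UMIs were summed per library and class and given as CPM with exact Poisson intervals. Ratios have exact conditional binomial intervals and shares Clopper-Pearson intervals, all at 95%. A fold against 0 used a floor of 3 UMIs for the class, and no fold was given where both classes had at most 3. Genes were counted as apart by size from a 2-fold difference on, given at least 20 UMIs in all and 50 CPM in either class. Lists (32 fixed, with 2 symbols, Cd99 and Darc, not found) used members with at least 10 UMIs and a pseudocount of 1 CPM for log2 ratios. The interval step was run on simulated independent Poisson sums. There 96.3% (lymphatic over blood) and 96.9% (between treatments) of the intervals held the true fold. Clustering of UMIs in single cells was not simulated, so this checks the calculation and not the width of the intervals for these cells.

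Named genes needed at least 20 UMIs, 100 CPM in either class, UMIs in at least 3 cells of the higher class with no single cell giving most of them, and a level in that class no lower than in the other retained cells. Up to 12 each way at least 1.5-fold apart were taken, ranked by how far the interval bound nearest 1 lay from 1. Predicted genes, rule genes and those of mitochondria, ribosomes, haemoglobin, immunoglobulins, T cell receptors, X inactivation and the Y chromosome were left out. Also named were list members with the largest or smallest ratios or the highest CPM, Dpp4 and Cxcl12, and 15 genes leading over other cells in each library. Genes named beside these were chosen after their values were seen. The endothelial cells and all lists were chosen with earlier results of these data known. Shared sequence ends are 31-base words of the last 500 bases of transcripts also found in other genes, for 85 genes examined. Gene coordinates are on GRCm38 and promoter windows are from RefSeq. Alternatives changed the cell filters, the rule, the scaling and the depth; those on scaling to endothelial genes and on leaving out the deepest cell were added after seeing the data. Python 3.11.15, numpy 2.4.6, scipy 1.17.1, pandas 2.3.3 and matplotlib 3.10.9 were used.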

Additional observations from a re-analysis of the deposited data

How the results depend on the processing

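The depth limits both comparisons, since 5 and 18 sitagliptin-labelled cells stand against 45 and 41, and the intervals hold no variation between animals. No paired analysis was possible because there was 1 library for each treatment. The lower endothelial share kept its direction under every setting run. The lymphatic share of endothelial cells was 44.4% in the sitagliptin-labelled and 62.5% in the PBS-labelled library with at most 5% mitochondrial UMIs, and 17.4% and 38.4% when at least 3 lymphatic rule genes were asked for. Genes at least 2-fold higher and lower in sitagliptin-labelled blood endothelial cells (160 and 291 as reported) numbered 26 and 58 with at most 5% mitochondrial UMIs, 26 and 55 without cells with markers of another type, 20 and 43 with cells thinned to 1000 UMIs, 465 and 703 with at least 10 UMIs and no CPM minimum, and 1060 and 67 when scaled to the endothelial genes outside the rule, a setting chosen after seeing the data. For lymphatic over blood endothelial cells (490 and 287 as reported) the same settings gave 314 and 131, 310 and 140, 68 and 71, 1078 and 689, and 878 and 183. Settings that leave fewer cells or UMIs also leave fewer genes over the minimum. The counts alone thus do not show whether the share of genes apart changed.

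Named genes, where either class had over 3 UMIs, kept their direction in all 310 values run for lymphatic over blood endothelial cells and in 296 of 300 for sitagliptin-labelled over PBS-labelled cells. The 4 that turned were Krt1 at a ratio of 0.8, Stfa3 at 0.836 and Krt10 at 0.909 with at most 5% mitochondrial UMIs, and S100a11 at 0.689 without cells with markers of another type. These counts are no separate evidence, since the genes were named for intervals far from 1. The setting with at least 10 UMIs and no CPM minimum repeats the reported ratios, 24 in each comparison, and the reported list medians. Leaving out shared barcodes removed 1 endothelial cell. Changed totals for scaling multiply every ratio of a comparison by the same factor. Medians of lists at least 1.5-fold from level as reported kept their direction in 125 of 127 and in 148 of 159 values. In lymphatic over blood endothelial cells the venous list turned to 0.36 with at most 5% mitochondrial UMIs and the tip cell list to -1.13 after thinning. Between treatments, scaling to the endothelial genes turned the median log2 ratio of those genes to 0.02 and of the lymphatic list to 0.32. Receptors turned to 0.10, transcription factors to 0.26, adhesion genes to 0.43 and cell cycle genes to 0.27. That scaling sets the sum of the endothelial genes level and raises every ratio by the same factor, so these turns follow from it. Without cells with markers of another type receptors turned to 0.08, transcription factors to 0.11 and adhesion genes to 0.51. Adhesion genes turned to 0.20 with the mean of each cell's CPM, and cell cycle genes to 0.19 when at least 3 lymphatic rule genes were asked for. What else lay behind the turns was not tested.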

Other observations

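Further lists were read in lymphatic against blood endothelial cells of the PBS-labelled library. Of 10 counted tip cell and angiogenic genes, 6 were at least 2-fold higher and 2 lower, with Adm, the gene of the vasodilator adrenomedullin, at 157 against 40.4 CPM and Itgb3, an integrin chain, at 94.3 against 13.5 CPM. Of 13 counted genes of haemostasis and vascular tone 2 were higher and 4 lower, with Ece1, which processes endothelin, at 903 against 384 CPM and the angiotensin-converting enzyme gene Ace at 35.9 against 188 CPM. Leukocyte adhesion and chemokine genes had 2 of 8 higher and 3 lower, and Icam1 stood at 157 against 135 CPM. Interferon-response genes had 5 of 15 higher and 2 lower, with Ifi27l2a at 508 against 175 CPM. Notch genes had 2 of 10 higher and 2 lower. Glucocorticoid-response genes were mostly within 2-fold, with 2 of 16 higher and 0 lower, and immediate early and dissociation genes had 2 of 21 higher and 2 lower. Cell cycle genes had 0 of 11 higher and 8 lower, with UMIs of Mki67 in 1 lymphatic and 5 blood endothelial cells. The ratio of their sums was 0.375 in all cells and 0.888 without cells with markers of another type, where Mki67 gave 1 against 0 UMIs, Top2a 2 against 0 and Tubb5 649 against 495 CPM.

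Stmn2, a stathmin gene, gave 8 UMIs in 5 of 18 sitagliptin-labelled against 3 UMIs in 3 of 41 PBS-labelled blood endothelial cells, 4.63-fold higher (1.11 to 27.1), and 6 against 2 UMIs without cells with markers of another type. Fbln5, which encodes a protein of elastic fibres, gave 16 UMIs in 8 cells against 11 UMIs in 9 cells, 2.52-fold higher (1.1 to 6.02). Both genes are known from arteries, and the arterial list as a whole had 2 of 9 higher and 2 lower.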
